A study of Mus musculus with 12 samples.

Results

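The genes followed here across mouse optic nerve libraries are 10 of the 35275 in the deposited count table: Gstm1, Gsta4, Nqo1, Hmox1, Gclc, Gclm, Srxn1, Txnrd1, Slc7a11 and Nfe2l2. They were chosen by name, as the transcription factor NRF2 (the product of Nfe2l2) and genes of glutathione and quinone detoxification that it is known to activate. The choice was made with earlier results of these data known. Polyadenylated RNA had been isolated from the optic nerves of an NF1 mouse, a model of neurofibromatosis. The treatments were carboplatin (3 libraries), which forms platinum cross-links in DNA, selumetinib (3 libraries), a MEK kinase inhibitor, and phosphate-buffered saline (PBS, 6 libraries). All 3 groups carry the NF1 model, and the PBS mice are the NF1 controls of the titles. The Nf1 alleles, the strain, the age, the doses and the time after treatment are not given in the sources used here, and no group without the NF1 model was used. The labels call the cells nerve cells, while the astrocyte and oligodendrocyte genes reported below show nerve tissue with its glia.

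In unstressed cells the KEAP1 protein holds NRF2 and hands it to a ubiquitin ligase for destruction. Electrophiles and oxidants modify KEAP1, NRF2 then enters the nucleus, pairs with a small MAF protein (MAFF, MAFG or MAFK) and binds the antioxidant response element of its target genes, where the BACH1 repressor competes for the same element. The targets take up cystine and build glutathione, couple glutathione to reactive molecules, reduce quinones, break down heme and keep thioredoxin reduced. In brain and nerve this response is known above all from astrocytes, and platinum drugs are among the compounds that react with glutathione.

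The libraries held 21793052 to 33375754 counts, and values are given as CPM, counts scaled to a common library size. All 10 genes passed the filter on low counts, as did 18344 genes in all, and a gene is said to have risen or fallen where its Benjamini-Hochberg adjusted p over those 18344 genes was under 0.05 in edgeR's quasi-likelihood test. Several libraries stood apart. PBS 1 had 5.32% of its counts in 12 skeletal muscle genes, against 0.000603% to 0.0363% in the other PBS libraries, and only 2.15% in 12 mature oligodendrocyte genes. Selumetinib 1 and selumetinib 2 had 3.18% and 2.26% of counts in the oligodendrocyte genes, against 7.21% in selumetinib 3, and 0.161% and 0.168% in 7 neuron genes, against 0.0226%. Photoreceptor genes made up 0.0919% of carboplatin 1 and 0.162% of carboplatin 3, and 0.0168% or less of any other library. The 8 retinal pigment epithelium genes made up 0.122% of carboplatin 2 and 0.0186% or less of any other library, and 3 of them rose with carboplatin against PBS. All 5 red blood cell genes fell with carboplatin, at 0.00124% to 0.00808% of counts, against 0.0246% to 0.819% with PBS. The part of these cell types in the carboplatin results below was not tested. Y-linked genes had no count in carboplatin 1, the 3 selumetinib libraries and PBS 1, and 3377 or more counts in every other library. The labels give no sex, and a difference between selumetinib and PBS nerve cannot be told apart from one of sex except through PBS 1. The label names run from Sample1 to Sample6 for carboplatin and PBS 1 to 3, and from Sample7 to Sample12 for selumetinib and PBS 4 to 6, without saying whether these are batches, so each drug was also set against the PBS libraries of its own run of names. Nothing in the labels ties libraries to individual mice, and each p-value therefore reflects variation among libraries that may be technical.

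Carboplatin optic nerve differed from PBS optic nerve in 1 of the 10 genes, the glutathione transferase gene Gstm1, which rose, while none fell. Of all genes tested, 2.09% changed in this comparison and 1.57% rose. The CPM of the groups did not overlap for 3 genes, all higher with carboplatin (Gstm1, Nqo1 and Gclc), where 6.97% of all genes lay apart in that direction, 5.23% in the other and 12.2% in either. The median log2 fold change of the 10 genes was 0.12, and that of all genes tested was -0.11. Selumetinib changed none of the 10 genes relative to PBS in edgeR, where 0% of all genes passed. An unadjusted p under 0.05 was reached by 3 of the 10, beside 4410 of the 18344 genes tested (2575 higher and 1835 lower). The unadjusted counts given below for selumetinib in the gene lists have the same background. DESeq2 called 2 of the 10 and limma voom called 5. The range of calls over all genes in the alternative fits is given at the end. The 10 genes had a median log2 fold change of -0.25, beside -0.09 for all genes. Nfe2l2 was the only one of them whose groups did not overlap (2.7% of all genes lay apart below PBS, 3.23% above it and 5.93% in either direction). Between the drugs, 3 of the 10 genes were higher in carboplatin than in selumetinib nerve (Gstm1, Nqo1 and Hmox1), and none was lower. In that comparison 14% of all genes changed and 5.65% were higher with carboplatin. Carboplatin lay apart above selumetinib for 7 of the 10 genes, against 20.9% of all genes in that direction and 41.7% in either. Their median log2 difference was 0.49, beside -0.01 for all genes. Both drugs are set against the same PBS libraries, so the comparisons share their controls. The carboplatin libraries all belong to the first run of library names and the selumetinib libraries all to the second. A difference between the drugs therefore cannot be told apart from one between these runs. It cannot be told apart from one of sex either, except through carboplatin 1, which lacked Y-linked counts as every selumetinib library did.

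**Figure D1:**
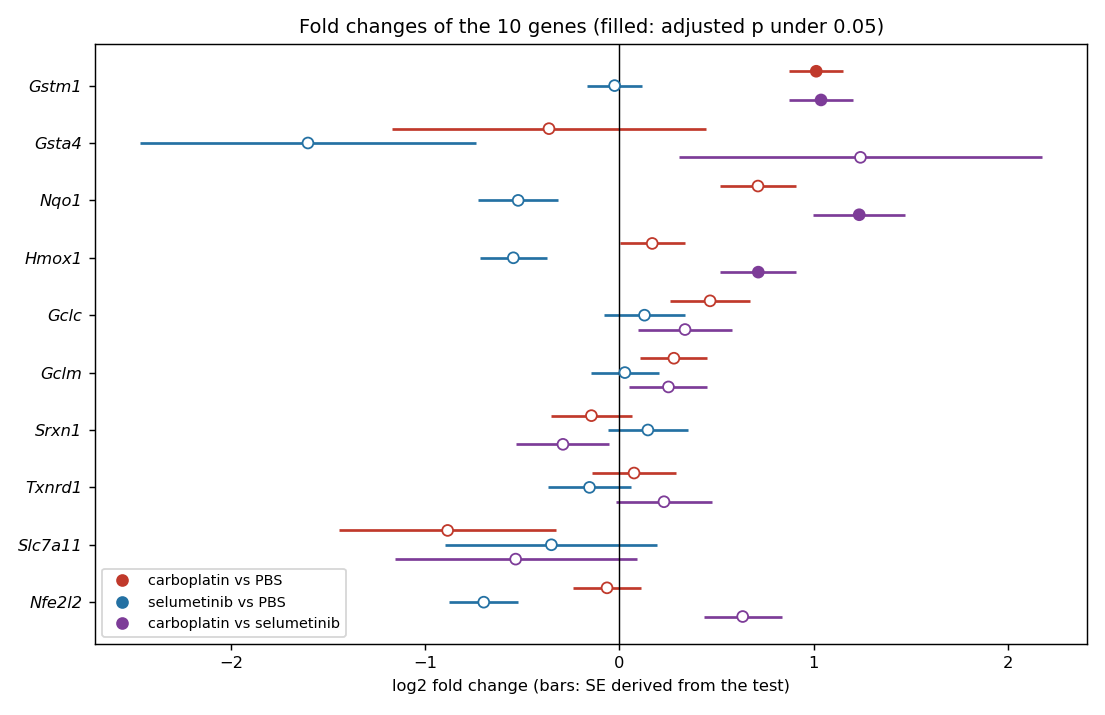
Log2 fold change of each of the 10 genes in carboplatin against PBS, selumetinib against PBS and carboplatin against selumetinib, with bars of 1 standard error derived from the test and filled points at an adjusted p under 0.05. Filled points stand at Gstm1 for carboplatin against PBS (1.01) and at Gstm1, Nqo1 and Hmox1 for carboplatin against selumetinib (1.04, 1.24 and 0.72).

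Gstm1 encodes a mu-class glutathione transferase, an enzyme that couples glutathione to electrophiles, and lies on the minus strand of chromosome 3 (108012255 to 108017973, build mm10). Its level was 438, 336 and 411 CPM in the 3 carboplatin libraries, 214, 206 and 157 CPM in the 3 selumetinib libraries, and 214, 201, 209, 180, 180 and 189 CPM in PBS 1 to 6. Every carboplatin library was above every other library, and the selumetinib and PBS libraries overlapped. The mean was 395 ± 52.6 CPM with carboplatin (SD, n = 3), 192 ± 30.4 CPM with selumetinib (SD, n = 3) and 196 ± 14.4 CPM with PBS (SD, n = 6). Gstm1 rose with carboplatin by a log2 fold change of 1.01 ± 0.14 (SE, adjusted p = 0.00453), and its selumetinib value was -0.02 ± 0.14 (adjusted p = 0.924). Carboplatin exceeded selumetinib by 1.04 ± 0.17 (adjusted p = 0.00877). Leaving out any single library kept the call in both comparisons, with 0.93 to 1.13 against PBS and adjusted p of 0.00119 to 0.0381. With the replicate number as a block, Gstm1 lost the call in both comparisons (adjusted p = 0.336 against PBS). The labels do not tie equal numbers together. Against PBS 1 to 3 alone the log2 fold change was 0.91 and the adjusted p was 0.205, in a fit where 7 of all genes passed. Without carboplatin 1 and 3 together, the libraries with the most photoreceptor RNA, carboplatin 2 alone stood 0.79 above PBS, a value from 1 library.

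Gstm1 RNA is known to be prominent in astrocytes, so astrocyte markers are set beside it here. The 12 astrocyte genes summed to 1.24% to 1.58% of counts with carboplatin, 0.708% to 1.03% with selumetinib and 0.306% to 1.44% with PBS, and none of the 12 was at 0 in any library. PBS 1 had the lowest astrocyte share (0.306%) and the highest Gstm1 of the PBS libraries (214 CPM). Carboplatin 2 had the highest share (1.58%) and the lowest Gstm1 of its group (336 CPM). Of these 12 markers 2 rose and none fell with carboplatin against PBS (median log2 fold change 0.44), and the part of the astrocyte RNA in the Gstm1 result was not tested. In bulk tissue, fewer cells of a type and less RNA per cell cannot be told apart. Of the 50-base words in Gstm1 transcripts, 18.9% also occur in another gene, so part of its reads could have been split or dropped by the counting. Counted by transcript, the gene sharing most of these words was the pseudogene Gstm2-ps1, whose own share was not computed. Gstm5, of the same mu class, shares no such word with another gene and is described next.

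**Figure D2:**
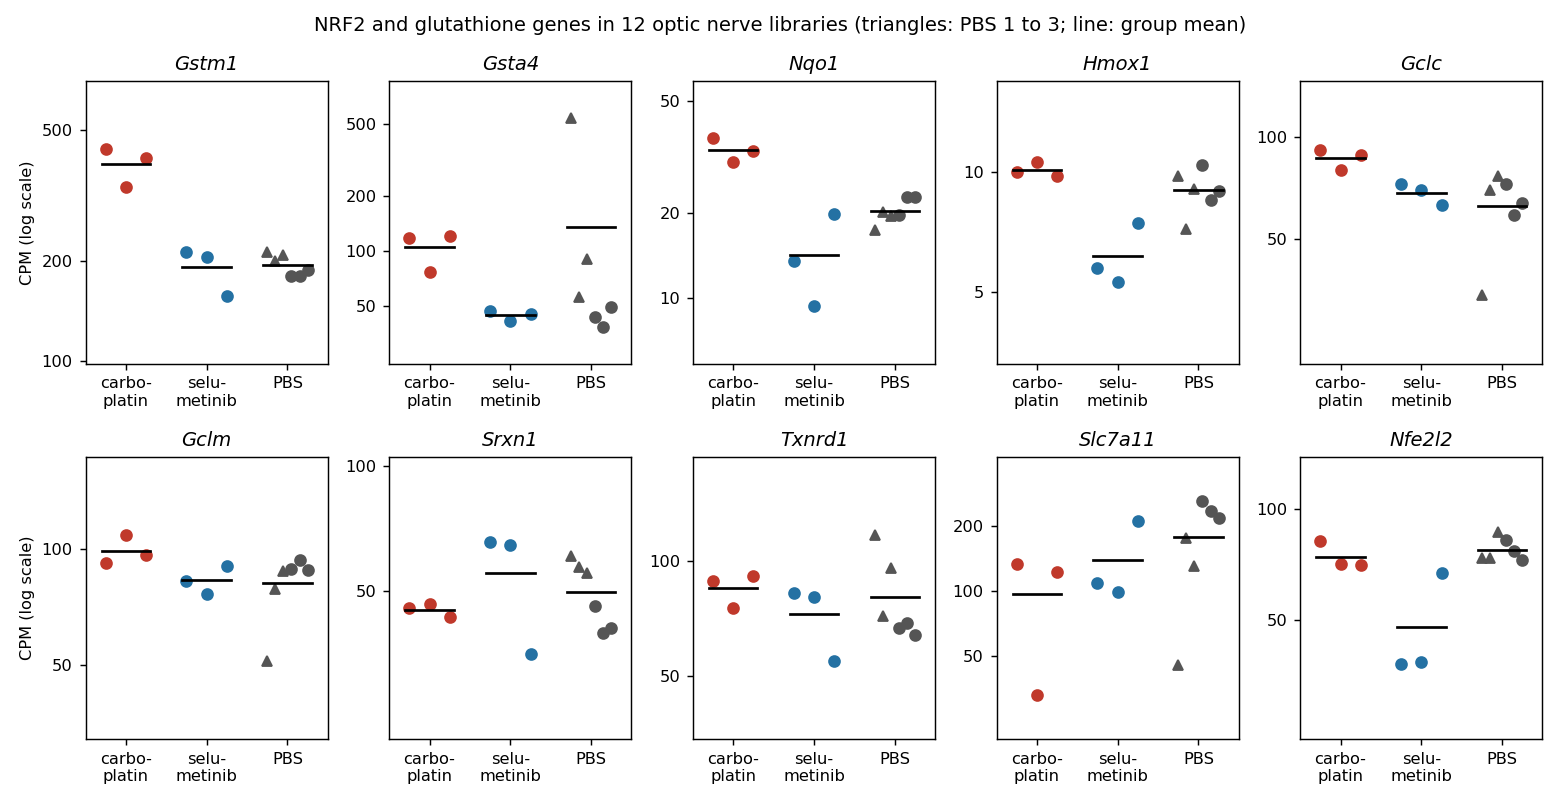
CPM (log axis, scaled separately per gene) of the 10 genes in each carboplatin, selumetinib and PBS library; triangles mark PBS 1 to 3 and lines the group means. The 3 carboplatin points of Gstm1 (336 to 438 CPM) and of Nqo1 (30.4 to 36.9 CPM) lie above all others, 2 of the 3 selumetinib points of Nfe2l2 lie near 38 CPM, and 1 PBS point of Gsta4 lies at 535 CPM.

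Among 23 other glutathione transferase and related genes tested, of 27 listed, 2 rose with carboplatin and none fell (median log2 fold change 0.14). Gstm5, another mu-class transferase, was at 166, 167 and 143 CPM with carboplatin, 111, 103 and 94.1 CPM with selumetinib and 97.2 to 112 CPM with PBS (median 106). Gstm5 rose with carboplatin by 0.60 ± 0.10 on the log2 scale (adjusted p = 0.0144). Mgst1, a membrane-bound transferase that also reduces lipid peroxides, was at 87.7, 86.2 and 73.5 CPM with carboplatin, 30.1, 31.8 and 47.7 CPM with selumetinib and 44.3 to 57.4 CPM with PBS (median 49.5). Mgst1 rose by 0.71 ± 0.15 (adjusted p = 0.0383), and for both genes every carboplatin library was above every other library. With selumetinib against PBS none of the 23 genes passed in edgeR, an unadjusted p under 0.05 was reached by 2 genes above PBS and 5 below it, and their median was -0.43. The smallest p there belonged to Gstm6, at 22.3, 30.6 and 7.70 CPM with selumetinib and 1.58 to 7.25 CPM with PBS (log2 fold change 2.05 ± 0.44, adjusted p = 0.0884). Carboplatin exceeded selumetinib in 3 of the 23 genes, Mgst1 (1.17 ± 0.18, adjusted p = 0.00783), Gstm5 (0.63 ± 0.12, adjusted p = 0.0139) and the pi-class Gstp1 (0.59 ± 0.17, adjusted p = 0.0450). Gdap1, a transferase-like protein of the outer mitochondrial membrane known from human inherited neuropathy, was lower (log2 -2.55 ± 0.52, adjusted p = 0.0176), at 11.2, 12.97 and 10.5 CPM with carboplatin and 89.0, 93.2 and 21.3 CPM with selumetinib. Gdap1 was thus high in the same selumetinib libraries as the neuron genes, and the part of neuronal RNA in it was not tested.

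Gsta4 encodes an alpha-class transferase that clears 4-hydroxynonenal, a product of lipid peroxidation, and lies on chromosome 9 (78182774 to 78209349, plus strand). Its CPM was 119, 77.1 and 120 with carboplatin, 46.9, 41.4 and 45.2 with selumetinib, and 535, 55.9, 90.2, 43.6, 38.5 and 49.3 in PBS 1 to 6. PBS 1 stood far above the rest, carboplatin was above selumetinib in every library, and PBS 4 to 6 were at the selumetinib level. Neither drug passed against PBS, with log2 fold changes of -0.36 ± 0.81 for carboplatin (adjusted p = 0.855) and -1.60 ± 0.86 for selumetinib (adjusted p = 0.270), nor did carboplatin against selumetinib (1.24 ± 0.94, adjusted p = 0.392). Without PBS 1 the carboplatin value turned to 0.91 with an adjusted p of 0.0409, and that of carboplatin against selumetinib passed too (1.23, adjusted p = 0.0108). The selumetinib value was then -0.31 (adjusted p = 0.396). Gsto1, an omega-class transferase picked out here after its values were seen, was highest in the same libraries as Gsta4, PBS 1, PBS 3 and carboplatin 1 and 3, with 794, 119 and 927 CPM with carboplatin, 20.6, 20.5 and 17.7 CPM with selumetinib and 4606, 124, 1142, 14.6, 18.6 and 15.2 CPM in PBS 1 to 6. PBS 1 was also the library with the most skeletal muscle RNA. Muscle genes made up 0.221%, 0.177% and 0.0104% of carboplatin 1 to 3, 0.000624% to 0.000987% of the selumetinib libraries and 0.0266% and 0.0363% of PBS 2 and 3. Carboplatin 3 held the least muscle RNA of its group and the most Gsta4 and Gsto1, and the part of muscle RNA in these levels was not tested.

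**Figure D3:**
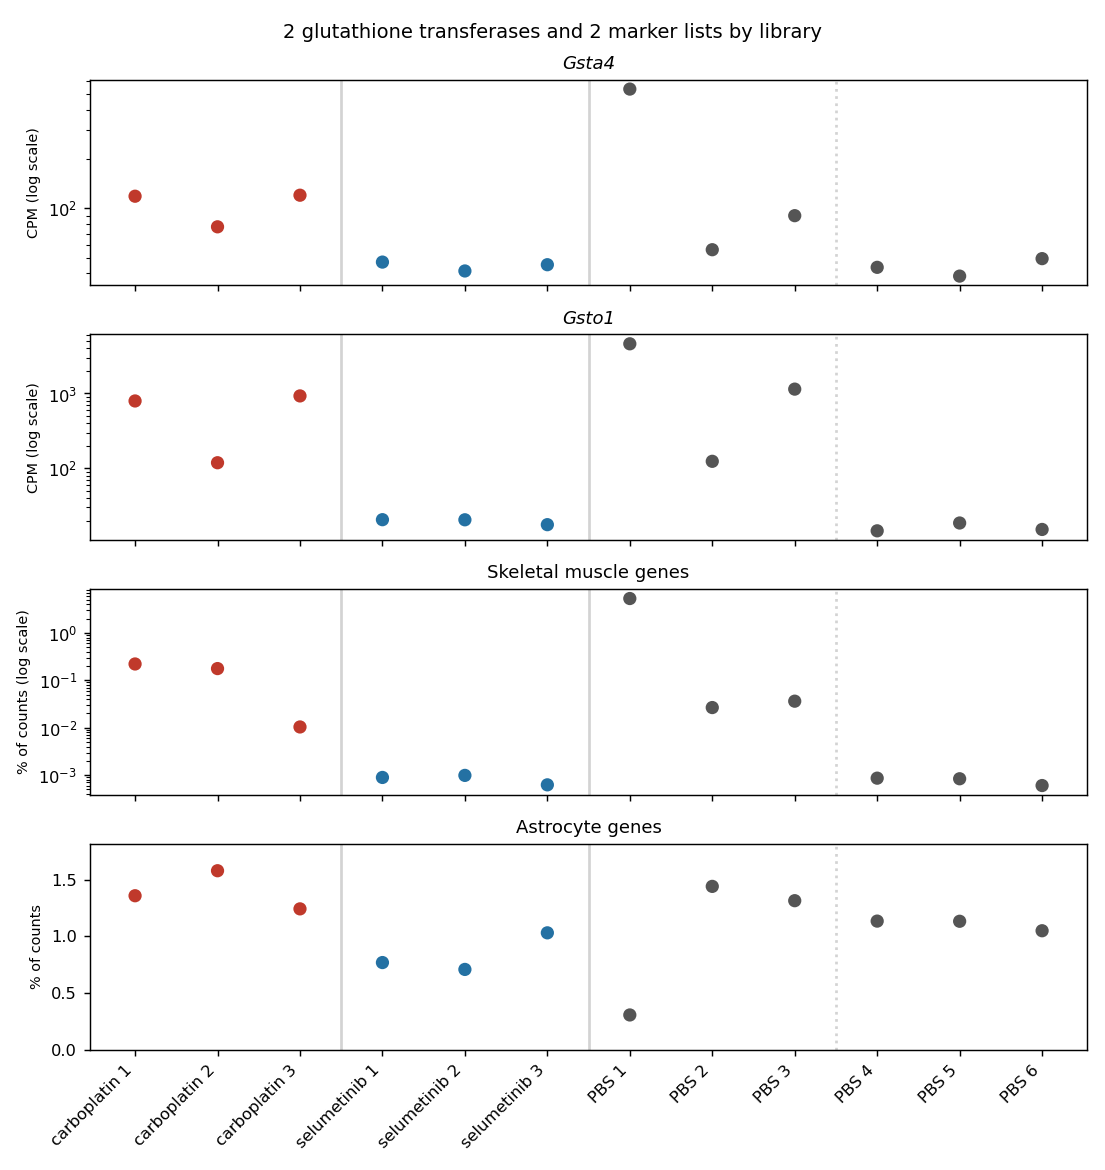
Gsta4 and Gsto1 in CPM (log axes) and the percentage of counts in 12 skeletal muscle genes (log axis) and 12 astrocyte genes in each library, carboplatin left, then selumetinib and PBS, with a dotted line between PBS 3 and PBS 4. PBS 1 is highest in the upper 3 panels (535 CPM, 4606 CPM and 5.32%) and lowest in astrocyte genes (0.306%).

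Nqo1 encodes the quinone reductase that serves as a textbook NRF2 target, on the minus strand of chromosome 8 (107388225 to 107403206). It was at 36.9, 30.4 and 33.3 CPM with carboplatin, 13.6, 9.34 and 19.8 CPM with selumetinib, and 17.4, 20.3, 19.5, 19.8, 22.8 and 22.8 CPM in PBS 1 to 6. All 3 carboplatin libraries were above all others, selumetinib 1 and 2 were below every PBS library, and selumetinib 3 was among them. The mean was 33.5 ± 3.24 CPM with carboplatin (SD, n = 3), 14.2 ± 5.26 CPM with selumetinib (SD, n = 3) and 20.4 ± 2.09 CPM with PBS (SD, n = 6). Nqo1 did not pass against PBS for carboplatin (log2 fold change 0.71 ± 0.20, adjusted p = 0.0934) or for selumetinib (-0.52 ± 0.21, adjusted p = 0.164). Carboplatin exceeded selumetinib by 1.24 ± 0.24 (adjusted p = 0.0139), a call lost without carboplatin 1, carboplatin 3, selumetinib 1 or selumetinib 2 (0.98 to 1.25, adjusted p of 0.0564 to 0.0711). Without selumetinib 3 Nqo1 passed in both comparisons with PBS, at 0.72 for carboplatin (adjusted p = 0.0298) and -0.81 for selumetinib (adjusted p = 0.0130). That fit keeps selumetinib 1 and 2, the libraries with few oligodendrocyte and many neuron transcripts, whose part in it was not tested. The carboplatin value within its own run of library names was 0.79 (adjusted p = 0.399), and the selumetinib value within its own was -0.62 (adjusted p = 0.158).

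Of 28 other quinone, aldehyde and detoxification genes tested, of 30 listed, 2 rose with carboplatin against PBS and none fell. Sult1a1, a sulfotransferase of phenols, was at 209, 86.9 and 218 CPM with carboplatin, 15.0, 14.1 and 40.3 CPM with selumetinib and at most 42.3 CPM with PBS (median 31.2), a rise of 2.44 ± 0.39 on the log2 scale (adjusted p = 0.0117). Por, the reductase that feeds electrons to cytochrome P450 enzymes, was at 254, 183 and 229 CPM with carboplatin and 97.7 to 166 CPM with PBS, a rise of 0.82 ± 0.17 (adjusted p = 0.0373). The median of the list was -0.03, close to that of all genes. Against selumetinib, carboplatin was higher in 4 of the 28, Por, Sult1a1, the epoxide hydrolase Ephx1 (1.29 ± 0.28, adjusted p = 0.0193) and the aldehyde dehydrogenase Aldh2 (0.92 ± 0.27, adjusted p = 0.0437). None passed with selumetinib against PBS in edgeR, where 1 gene above PBS and 8 below it had an unadjusted p under 0.05. The smallest p was that of the carbonyl reductase Cbr1, at 47.2, 46.2 and 26.9 CPM with selumetinib and 23.8 to 31.7 CPM with PBS (log2 fold change 0.59 ± 0.18, adjusted p = 0.108).

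Hmox1 encodes heme oxygenase 1, which breaks down heme and is controlled by both NRF2 and BACH1; it lies on chromosome 8 (75093621 to 75100589, plus strand) and was the lowest of the 10 genes in every group. It was at 10.01, 10.6 and 9.75 CPM with carboplatin, 5.73, 5.29 and 7.44 CPM with selumetinib, and 9.78, 7.20, 9.08, 10.4, 8.49 and 8.93 CPM in PBS 1 to 6. The carboplatin libraries lay within or just above the upper PBS values, and selumetinib overlapped PBS only through selumetinib 3 and PBS 2. Hmox1 did not pass with carboplatin (log2 fold change 0.17 ± 0.17, adjusted p = 0.654) or selumetinib (-0.55 ± 0.17, adjusted p = 0.114) against PBS, and was 0.72 ± 0.20 higher in carboplatin than in selumetinib nerve (adjusted p = 0.0372). That call held in 4 of the 12 fits that left out 1 library, with 0.59 to 0.86 and adjusted p of 0.0103 to 0.146. It was lost without any one carboplatin library (0.70 to 0.76, adjusted p of 0.0932 to 0.102), without selumetinib 1 or selumetinib 2 (0.64 and 0.59, adjusted p = 0.137 and 0.146), and without PBS 3, PBS 5 or PBS 6 (0.71 each, adjusted p of 0.0514 to 0.0561). Without selumetinib 3, Hmox1 passed against PBS with selumetinib (-0.67, adjusted p = 0.0215). Only selumetinib 1 and selumetinib 2 then remain, which had few oligodendrocyte and many neuron transcripts, and the part of these was not tested. Among 16 heme and iron genes tested, of 17 listed, none passed for carboplatin against PBS in edgeR; 2 had an unadjusted p under 0.05, of which the smallest was that of the ferritin heavy chain Fth1. Fth1 was at 14789, 30856 and 23953 CPM with carboplatin, 3937, 2877 and 8584 CPM with selumetinib and 6463 to 11485 CPM with PBS. Every carboplatin library was above every PBS library, with a log2 fold change of 1.34 ± 0.35 (adjusted p = 0.0786). Against selumetinib, carboplatin was higher for Fth1 (2.18 ± 0.44, adjusted p = 0.0160) and for the ferritin light chain Ftl1 (1.00 ± 0.25, adjusted p = 0.0287), and in 2 of the 16 in all. With selumetinib against PBS none passed in edgeR, 5 were lower at an unadjusted p under 0.05, and the smallest p was that of Aco1, the cytosolic aconitase that also binds iron-responsive elements (log2 fold change -0.35 ± 0.14, adjusted p = 0.155).

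Gclc and Gclm encode the catalytic and the modifier subunit of glutamate-cysteine ligase, the rate-limiting enzyme of glutathione synthesis, and Slc7a11 encodes the cystine transporter that supplies its cysteine. Gclc (chromosome 9, 77754535 to 77794485, plus strand) was at 91.8, 79.7 and 88.3 CPM with carboplatin, 72.8, 69.6 and 63.1 CPM with selumetinib, and 33.99, 69.7, 76.9, 72.5, 58.8 and 63.9 CPM in PBS 1 to 6. The carboplatin libraries were above all others, PBS 1 was far below, and the difference from PBS did not pass (log2 fold change 0.47 ± 0.21, adjusted p = 0.292; 0.32 and adjusted p = 0.0618 without PBS 1). Gclm (chromosome 3, 122245557 to 122270732, plus strand) was at 91.6, 108 and 96.3 CPM with carboplatin, 82.4, 76.1 and 90.2 CPM with selumetinib, and 51.1, 78.6, 87.7, 88.6, 93.5 and 88.3 CPM in PBS 1 to 6. The carboplatin libraries lay above the selumetinib libraries, both groups overlapped PBS and PBS 1 was the lowest library, with 0.28 ± 0.17 for carboplatin (adjusted p = 0.452) and 0.03 ± 0.17 for selumetinib (adjusted p = 0.930) against PBS. Both subunits were lowest in PBS 1, and over the 12 libraries their log2 CPM had a Pearson r of 0.819 (permutation p = 0.0157, adjusted over 45 pairs 0.141) and a Spearman rho of 0.455 (permutation p = 0.140, adjusted 0.332). Without PBS 1 and carboplatin 1, the libraries farthest from the median of Gclc, r was 0.290, so that relation rests on those libraries. Of the Gclm exon bases, 4.71% are shared with Gm17494 on the opposite strand and 3.88% with Gm6061 on its own, and the strand setting of the counting is not given in the sources used here.

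Slc7a11 (chromosome 3, 49892526 to 50443614, minus strand) varied widely within groups. It was at 134, 32.7 and 123 CPM with carboplatin, 109, 99.2 and 212 CPM with selumetinib, and 45.3, 176, 131, 263, 237 and 219 CPM in PBS 1 to 6. Carboplatin 2 and PBS 1 were the lowest libraries, PBS 4 to 6 the highest, and all groups overlapped. The 8 fibroblast and meningeal genes, picked out here after their values were seen, made up 0.380% of carboplatin 2 and 0.423% of PBS 1. Their share was 0.378% in selumetinib 1, 0.318% in selumetinib 2 and 1.055% or more in every other library. The part of these cells in the Slc7a11 level was not tested. The log2 fold change was -0.88 ± 0.56 for carboplatin (adjusted p = 0.468), -0.35 ± 0.55 for selumetinib (adjusted p = 0.698) and -0.53 ± 0.62 for carboplatin against selumetinib (adjusted p = 0.599). Gclc and Gclm did not pass between the drugs either (0.34 ± 0.24, adjusted p = 0.369, or 0.0484 without PBS 1, and 0.25 ± 0.20, adjusted p = 0.419), nor did Gclc for selumetinib against PBS (0.13 ± 0.21, adjusted p = 0.712).

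Of 20 further genes of glutathione synthesis, breakdown and recycling tested, of 21 listed, 1 rose with carboplatin and none fell, with a median of 0.15. This was Ahcy, which hydrolyses S-adenosylhomocysteine on the way from methionine to cysteine, at 80.4, 67.4 and 95.3 CPM with carboplatin, 38.7, 38.0 and 39.0 CPM with selumetinib and 32.8 to 44.7 CPM with PBS (median 37.8). Every carboplatin library was above every other library, and the rise was 1.06 ± 0.13 on the log2 scale (adjusted p = 0.00226). Glutathione synthetase Gss (0.20 ± 0.21, adjusted p = 0.672) and glutathione reductase Gsr (0.12 ± 0.25, adjusted p = 0.842), named for their roles after the values were seen, did not pass. Between the drugs, carboplatin was higher for Ahcy (1.07 ± 0.15, adjusted p = 0.00638). With selumetinib against PBS none of the 20 passed in edgeR and 3 had an unadjusted p under 0.05, 2 of them above PBS.

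Srxn1 encodes sulfiredoxin, which repairs over-oxidised peroxiredoxins, and Txnrd1 the cytosolic thioredoxin reductase. Srxn1 (chromosome 2, 152105516 to 152111376, plus strand) was at 45.6, 46.5 and 43.4 CPM with carboplatin, 65.7, 64.7 and 35.2 CPM with selumetinib, and 60.6, 57.1, 55.3, 46.04, 39.6 and 40.8 CPM in PBS 1 to 6. Carboplatin lay within the PBS range, and selumetinib 1 and 2 lay above it with selumetinib 3 below. The log2 fold change of Srxn1 was -0.14 ± 0.21 for carboplatin (adjusted p = 0.764) and 0.15 ± 0.21 for selumetinib (adjusted p = 0.664). Txnrd1 (chromosome 10, 82833951 to 82897712, plus strand) was at 88.5, 75.3 and 91.2 CPM with carboplatin, 82.5, 80.3 and 54.7 CPM with selumetinib, and 117, 71.6, 96.0, 66.8, 68.8 and 64.0 CPM in PBS 1 to 6. Selumetinib 3 was again the lowest library and PBS 1 the highest, with 0.08 ± 0.21 for carboplatin (adjusted p = 0.887) and -0.15 ± 0.22 for selumetinib (adjusted p = 0.663). Neither gene passed between the drugs (Srxn1 -0.29 ± 0.24, adjusted p = 0.436; Txnrd1 0.23 ± 0.25, adjusted p = 0.565).

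Of 34 other peroxidase, thioredoxin and superoxide genes tested, of 35 listed, 2 rose with carboplatin and none fell, with a median of -0.11, the same as that of all genes. Both were sestrins, stress-induced proteins that p53 is known to activate and that restrain the growth kinase mTORC1. Sesn1 was at 200, 128 and 207 CPM with carboplatin, 53.9, 58.4 and 81.6 CPM with selumetinib and 77.1 to 103 CPM with PBS, a rise of 1.03 ± 0.18 (adjusted p = 0.0156). Sesn2 was at 32.3, 26.4 and 31.2 CPM with carboplatin, 14.3, 14.2 and 14.3 CPM with selumetinib and 8.29 to 18.4 CPM with PBS, a rise of 1.13 ± 0.23 (adjusted p = 0.0311). Carboplatin exceeded selumetinib in 5 of the 34, the 4 with the smallest p being Sesn1 (1.46 ± 0.22, adjusted p = 0.00707), peroxiredoxin 6 (Prdx6, 1.55 ± 0.36, adjusted p = 0.0236), the thioredoxin inhibitor Txnip (2.12 ± 0.51, adjusted p = 0.0253) and Sesn2 (1.07 ± 0.28, adjusted p = 0.0313). Selumetinib changed none of the 34 against PBS in edgeR, and their median was -0.44. At an unadjusted p under 0.05, 7 were lower, beside 1835 of the 18344 genes tested. The smallest p was that of glutathione peroxidase 1 (Gpx1, -0.73 ± 0.24, adjusted p = 0.123).

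Nfe2l2 encodes NRF2 itself, which is regulated mainly through protein stability, on the minus strand of chromosome 2 (75675513 to 75704641). It was at 81.7, 70.7 and 70.2 CPM with carboplatin, 38.0, 38.5 and 66.8 CPM with selumetinib, and 73.6, 73.6, 86.4, 82.2, 76.6 and 72.8 CPM in PBS 1 to 6. Carboplatin overlapped PBS, all 3 selumetinib libraries lay below both, and selumetinib 1 and 2 stood far below selumetinib 3. The mean was 74.2 ± 6.48 CPM with carboplatin (SD, n = 3), 47.8 ± 16.5 CPM with selumetinib (SD, n = 3) and 77.5 ± 5.56 CPM with PBS (SD, n = 6). None of the comparisons passed, with -0.06 ± 0.17 for carboplatin (adjusted p = 0.881), -0.70 ± 0.18 for selumetinib (adjusted p = 0.0884) and 0.63 ± 0.20 for carboplatin against selumetinib (adjusted p = 0.0572). Without selumetinib 3 the values were -0.99 for selumetinib against PBS (adjusted p = 0.00170) and 0.94 between the drugs (adjusted p = 0.00173), and without PBS 1 the difference between the drugs also passed (0.62, adjusted p = 0.0344). Without selumetinib 1 the selumetinib value was -0.55 (adjusted p = 0.415). The low Nfe2l2 libraries, selumetinib 1 and 2, had few oligodendrocyte and many neuron transcripts. PBS 1 had the fewest of both (2.15% and 0.00208% of counts) and 73.6 CPM of Nfe2l2. The part of these cell types in the Nfe2l2 level was not tested.

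Maff and Mafk, small MAF genes whose products pair with NRF2 or with each other, rose with carboplatin, and the related Mafg did not pass. Maff was at 72.3, 39.4 and 87.5 CPM with carboplatin, 3.47, 2.77 and 8.04 CPM with selumetinib, and 13.9, 10.8, 12.1, 12.9, 15.5 and 12.1 CPM in PBS 1 to 6. Mafk was at 104, 111 and 138 CPM with carboplatin, 19.1, 18.7 and 28.9 CPM with selumetinib, and 54.9, 35.1, 39.3, 28.8, 39.3 and 28.6 CPM in PBS 1 to 6. For both genes all carboplatin libraries were above all PBS libraries, and for Maff all selumetinib libraries were also below them. Mafg, given here after its values were seen, was at 66.2, 63.4 and 66.97 CPM with carboplatin, 73.0, 79.5 and 70.4 CPM with selumetinib and 60.8 to 87.3 CPM with PBS, with -0.11 ± 0.12 for carboplatin (adjusted p = 0.688) and 0.07 ± 0.12 for selumetinib (adjusted p = 0.719) against PBS. With carboplatin Maff rose by 2.37 ± 0.31 (adjusted p = 0.00388) and Mafk by 1.64 ± 0.22 (adjusted p = 0.00385) on the log2 scale. These were 2 of the 17 NRF2 regulators tested, none of which fell, with a list median of -0.01. With selumetinib none passed in edgeR, while 2 genes above PBS and 3 below it had an unadjusted p under 0.05, the smallest p being that of the ubiquitin ligase subunit Btrc (0.87 ± 0.19, adjusted p = 0.0884), and Maff had -1.44 ± 0.35 (adjusted p = 0.0884). Btrc ranged from 53.1 to 104 CPM with selumetinib (median 104) and from 42.7 to 58.1 CPM with PBS, so the groups overlapped. Carboplatin exceeded selumetinib for Maff (3.80 ± 0.42, adjusted p = 0.00231), Mafk (2.40 ± 0.27, adjusted p = 0.00237) and Bach1 (0.67 ± 0.18, adjusted p = 0.0349), and was lower for Btrc (-0.94 ± 0.23, adjusted p = 0.0258). Keap1, added here for its role after its values were seen, was at 87.8, 95.0 and 96.7 CPM with carboplatin, 86.2, 81.6 and 68.6 CPM with selumetinib and 62.7 to 116 CPM with PBS, and did not pass for either drug (0.28 ± 0.18, adjusted p = 0.480, and 0.04 ± 0.19, adjusted p = 0.900). Against PBS 1 to 3 alone, Maff and Mafk stood 2.42 and 1.44 higher with carboplatin, with adjusted p of 0.143 and 0.104.

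**Figure D4:**
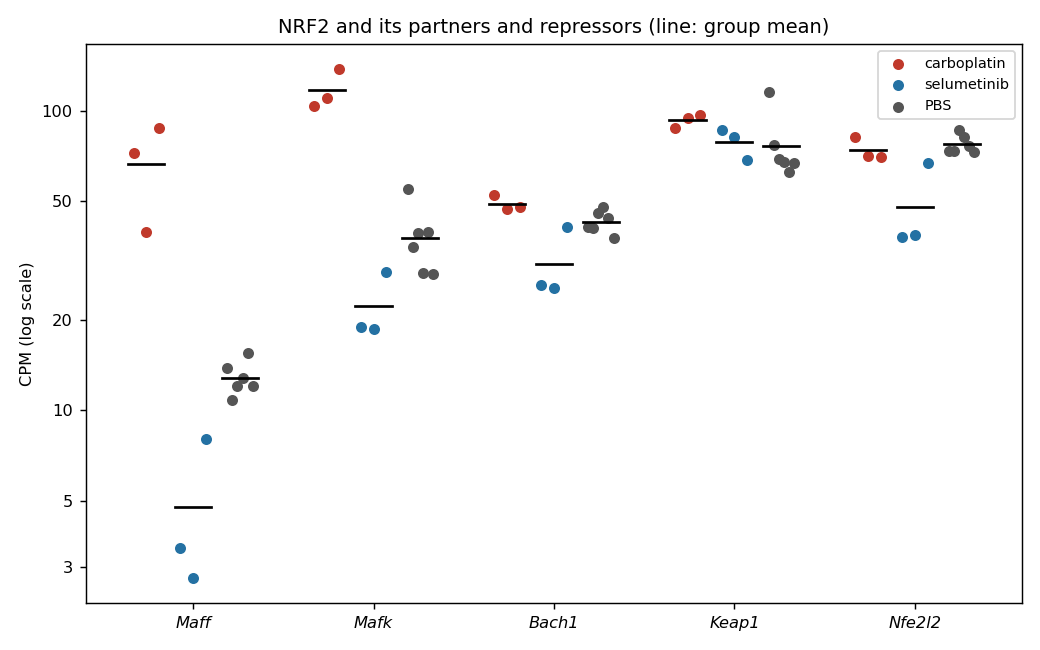
CPM (log axis) of Maff, Mafk, Bach1, Keap1 and Nfe2l2 in each library, with lines at the group means. Carboplatin points stand above the PBS points for Maff (39.4 to 87.5 against 10.8 to 15.5 CPM) and Mafk (104 to 138 against 28.6 to 54.9 CPM), while the Nfe2l2 points of carboplatin (70.2 to 81.7 CPM) and PBS (72.8 to 86.4 CPM) overlap.

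The promoters of the genes were read to show where the core of the antioxidant response element, TGACNNNGC, occurs close to their starts. RefSeq promoters of build GRCm38.p6, from 250 bases before to 50 after the start, were at hand for 7 of the 10 genes, and Gsta4, Hmox1 and Gclc had none in the table. The core, searched on both strands, occurred in 4 of the 7 (Gclm, Srxn1, Txnrd1 and Nfe2l2), and in 14.0% of the 27025 genes with a promoter in the table. By promoter it was 4 of 10, against 12.4% of 32851. It did not occur in the windows of Gstm1, Nqo1 and Slc7a11, which says only that these letters are not in those windows. The stretches below show the match in capitals for Gclm, Txnrd1 and Nfe2l2, and for Maff and Mafk, the regulators that rose with carboplatin; a match reading GCNNNGTCA is the core on the opposite strand, and none of the 5 matches holds the AP-1 site TGACTCA.
Gclm, chr3:122245403-122245451, plus strand: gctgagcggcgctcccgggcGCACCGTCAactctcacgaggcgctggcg
Txnrd1, chr10:82859094-82859142, plus strand: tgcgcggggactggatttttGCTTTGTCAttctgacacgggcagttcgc
Nfe2l2, chr2:75704875-75704913, minus strand: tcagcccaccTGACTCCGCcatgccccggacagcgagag
Maff, chr15:79346489-79346537, plus strand: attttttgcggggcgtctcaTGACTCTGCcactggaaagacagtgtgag
Mafk, chr5:139791503-139791535, plus strand: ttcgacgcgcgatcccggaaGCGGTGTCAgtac
Of the 3 members printed, Gclm, Txnrd1 and Nfe2l2, none passed in any of the comparisons, and Gstm1, which rose, had no match in its window. These matches are a description of the sequence and not of binding.

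**Figure D5:**
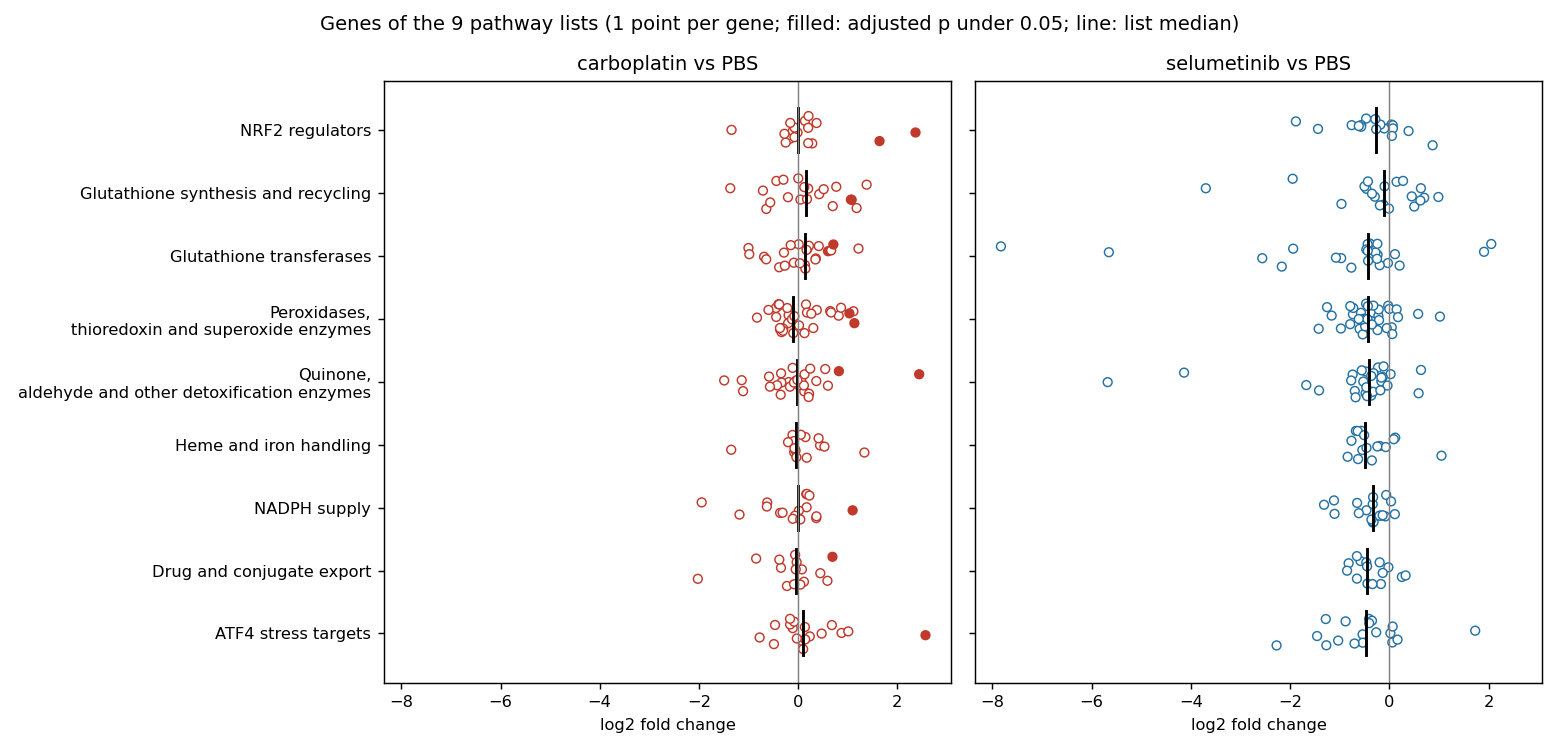
Log2 fold change of each tested gene of the 9 pathway lists in carboplatin against PBS (left) and selumetinib against PBS (right), 1 point per gene, filled at an adjusted p under 0.05, with a line at each list median. Filled points appear with carboplatin only, 12 in all and all above 0, and the selumetinib medians lie between -0.48 and -0.11.

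Over the 9 lists of pathway genes together, 189 genes tested of 199, 12 rose and none fell with carboplatin against PBS, beside 1.57% and 0.518% of all genes. The lists were chosen with earlier results of these data known, so their counts are a description and not a test. With selumetinib against PBS none passed in edgeR, DESeq2 called 26 and limma voom 131. In edgeR, 43 passed without selumetinib 3 (8 higher and 35 lower) and 42 with the presence of Y-linked counts as a term (3 higher and 39 lower). The calls over all genes also varied widely between such fits, as given at the end. No share of all genes is set beside these 4 counts, so they are not read as above background. Of the 189 genes, carboplatin exceeded selumetinib in 26 and was lower in 5, beside 5.65% and 8.35% of all genes. The lists of NADPH supply and ATF4 stress genes each gave 1 of the 12. Aldh1l1, a folate enzyme that makes NADPH and is also an astrocyte marker, was at 144, 128 and 137 CPM with carboplatin, 70.2, 72.3 and 64.2 CPM with selumetinib and 30.6 to 89.0 CPM with PBS, a rise of 1.10 ± 0.25 (adjusted p = 0.0461). Ddit4, an inhibitor of mTORC1 that also answers to DNA damage and glucocorticoids, was at 464, 210 and 374 CPM with carboplatin, 31.5, 31.2 and 45.97 CPM with selumetinib and 39.4 to 91.4 CPM with PBS, a rise of 2.57 ± 0.33 (adjusted p = 0.00309). In both genes every carboplatin library was above every other library. Counted over 23 alternative settings, Maff, Mafk, Ahcy and Ddit4 passed in 20, Gstm5, Sesn1 and Sult1a1 in 18, Mgst1 in 12, Sesn2 in 11, Por in 10 and Aldh1l1 in 8. The call was lost for Gstm5 without carboplatin 1 or 2 (adjusted p = 0.0848 and 0.0587), and without carboplatin 1 or 3 for Sesn1 (0.0895 and 0.0991) and Sult1a1 (0.0559 and 0.0685). Mgst1, Sesn2, Por and Aldh1l1 lost it without any of several libraries, among them carboplatin 1 and 3 and each of PBS 4 to 6, with the highest adjusted p at 0.173, 0.146, 0.182 and 0.177 in that order. Between the drugs, all called genes of the 9 lists named here but Maff, Mafk, Mgst1, Ahcy, Sesn1 and Ddit4 lost the call without selumetinib 1 and also without selumetinib 2, with adjusted p from 0.0541 (Por) to 0.178 (Abcc4).

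Between the drugs, carboplatin was higher for the NADPH genes G6pdx (glucose-6-phosphate dehydrogenase, 0.70 ± 0.14, adjusted p = 0.0147), Aldh1l1 (0.99 ± 0.30, adjusted p = 0.0485) and Taldo1 (transaldolase, 0.81 ± 0.24, adjusted p = 0.0489). Of the export genes the transporter Abcc4 (0.90 ± 0.26, adjusted p = 0.0452) was higher and Abcc5 (-1.10 ± 0.26, adjusted p = 0.0247) lower. Of the ATF4 genes, Ddit4 (3.27 ± 0.43, adjusted p = 0.00419), Cebpb (2.28 ± 0.58, adjusted p = 0.0308) and the amino acid transporter Slc7a5 (0.85 ± 0.25, adjusted p = 0.0429) were higher, and asparagine synthetase Asns (-2.51 ± 0.61, adjusted p = 0.0260) was lower, at 8.37, 6.28 and 3.71 CPM with carboplatin and 46.03, 49.5 and 8.94 CPM with selumetinib. Asns was high in the selumetinib libraries rich in neuron genes, whose part in it was not tested. Against PBS none of these 3 lists had a call with selumetinib in edgeR; at an unadjusted p under 0.05 2 NADPH genes, 4 export genes and 5 ATF4 genes were below PBS and 1 ATF4 gene was above it. Their smallest p were those of Taldo1 (-0.65 ± 0.22, adjusted p = 0.124), Abcc4 (-0.82 ± 0.23, adjusted p = 0.0961) and Asns (1.73 ± 0.48, adjusted p = 0.0933).

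The 6 PBS libraries were not uniform for these genes. PBS 1 to 3 lay wholly above PBS 4 to 6 for 4 of the 10, where 12.3% of all genes did, and wholly below for 2, where 10.4% did. Gstm1 was at 208 ± 6.63 CPM in PBS 1 to 3 and 183 ± 5.12 CPM in PBS 4 to 6 (SD, n = 3 each), a gap small beside the carboplatin level of 336 CPM or more. Srxn1 was at 55.3 to 60.6 against 39.6 to 46.04 CPM, Txnrd1 at 71.6 to 117 against 64.0 to 68.8 CPM, and Gsta4 at 55.9 to 535 against 38.5 to 49.3 CPM. Slc7a11 was at 45.3 to 176 CPM in PBS 1 to 3 and 219 to 263 CPM in PBS 4 to 6, and Gclm at 51.1 to 87.7 against 88.3 to 93.5 CPM. The choice of PBS libraries set the sign of a drug's value for 6 of the 10 genes. Gsta4 with carboplatin was at -1.10 against PBS 1 to 3 (adjusted p = 0.558) and 1.27 against PBS 4 to 6 (adjusted p = 0.00609), and with selumetinib at -2.30 and 0.019. With selumetinib Gstm1 was at -0.086 and 0.064, and Gclm at 0.21 and -0.13. Slc7a11 with selumetinib was at 0.26 against PBS 1 to 3 and -0.78 against PBS 4 to 6, Srxn1 with carboplatin at -0.37 and 0.11, and Txnrd1 with carboplatin at -0.17 and 0.36. Srxn1 and Txnrd1 turned the same way with selumetinib, at -0.033 and 0.38 and at -0.35 and 0.12. Against PBS 4 to 6 alone carboplatin changed 3 of the 10 genes, all higher. Those controls are of the other run of library names. The share of all genes called in that fit is not set beside this count, so it is not read as above background.

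Per kilobase of exon, the scale on which genes can be set beside each other, Gstm1 was the highest of the 10 in each group, at 268 ± 35.7 CPM per kilobase with carboplatin, 130 ± 20.7 with selumetinib and 133 ± 9.79 with PBS (SD). Gsta4 came next, and its PBS mean of 107 ± 155 rests on PBS 1, the PBS median being 41.5. Hmox1 was last, at 5.77 ± 0.237 with carboplatin, 3.51 ± 0.649 with selumetinib and 5.13 ± 0.634 with PBS. The other 7 genes had group means of 6.94 to 23.0, led by Gclc in carboplatin, Srxn1 in selumetinib and Nfe2l2 in PBS nerve. Neighbours in the order of these 7 differed by less than the larger of their SDs throughout in PBS nerve. In carboplatin nerve this held for Gclc, Nqo1 and Nfe2l2 and for Srxn1 and Gclm, and in selumetinib nerve for all neighbours but Gclc and Gclm.

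Of the 45 pairs among the 10 genes, 3 had a Pearson correlation of log2 CPM over the 12 libraries with an adjusted permutation p under 0.05, and none had such a Spearman correlation. Nqo1 and Hmox1 had r = 0.797 (permutation p = 0.00159, adjusted 0.0358) and rho = 0.524 (permutation p = 0.0839, adjusted 0.294), with r = 0.644 after leaving out selumetinib 2 and carboplatin 1; within the 6 PBS libraries r was -0.371. Gsta4 and Txnrd1 had r = 0.814 (permutation p = 0.00073, adjusted 0.0329) and rho = 0.713 (permutation p = 0.0120, adjusted 0.110), with r = 0.633 without PBS 1 and carboplatin 3. Hmox1 and Nfe2l2 had r = 0.863 (permutation p = 0.00283, adjusted 0.0425) and rho = 0.517 (permutation p = 0.0881, adjusted 0.294), but r = 0.331 without selumetinib 1 and 2, so it rests on those libraries. These correlations run over 3 treatments and share the libraries that stood apart.

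The most alike gene of each, by Pearson r of log2 CPM over the 12 libraries among 12933 genes, was never another of the 10. Gstm1 was nearest to Slc25a33, a mitochondrial carrier of pyrimidine nucleotides, with r = 0.966, rho = 0.832 and r = 0.928 without carboplatin 1 and 3. Nqo1 was nearest to the interleukin 6 receptor gene Il6ra (r = 0.982, rho = 0.909, 0.953 without the 2 libraries farthest from the median). Nfe2l2 was nearest to Tgfb1, the growth factor gene (0.969, 0.832), with r = 0.683 without selumetinib 1 and 2. Txnrd1 was nearest to Chac1, whose enzyme degrades glutathione, with r = 0.920, rho = 0.937 and r = 0.905 without PBS 1 and selumetinib 3. Chac1 was at 10.9, 2.49 and 16.8 CPM with carboplatin, 4.67, 5.01 and 0.898 CPM with selumetinib, and 51.4, 3.69, 23.5, 1.31, 0.412 and 1.63 CPM in PBS 1 to 6. The others were Gsta4 with the mitochondrial protease gene Lonp1 (r = 0.981, rho = 0.902), Hmox1 with Rcor3 (0.958, 0.860), Gclc with Zswim5 (0.964, 0.832), Gclm with the potassium channel gene Kcnq3 (0.978, 0.916), Srxn1 with Klhl23 (0.908, 0.902) and Slc7a11 with the collagen gene Col12a1 (0.974, 0.986). The nearest of 12933 genes has a high r by selection, so these values rank the genes and are given without a test.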

How the data were processed

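The deposited values are whole-number counts of reads for each gene and library, not normalized. STAR, HTSeq, Trimmomatic, FastQC and DESeq2, with build mm10, are named in the submitters' processing notes. Tool versions, annotation, strand setting and filters are not given in the sources used here. RNA was column-purified and poly-T selected, per the labels' protocols. Groups came from the treatment label. The 10 genes and all lists were chosen with earlier results of these data known. Counts were filtered with filterByExpr (minimum count 10, minimum total 15), TMM-scaled and entered into the robust quasi-likelihood test of edgeR 4.0.16 (R 4.3.3), in 1 model of 3 groups over 12 libraries (common dispersion 0.272). The SE is the absolute log2 fold change divided by the square root of the F statistic and is not a fitted error. Log2 CPM used a prior count of 2. Of each pathway list, up to 4 called genes with the smallest p per comparison were named, or the 1 with the smallest p where none was called; other names are marked in the text, and 2 genes of the lists, kept in the counts, are not reported here. Each gene's nearest gene by Pearson r was named. Permutation p-values of correlations used 99999 resamples. Coordinates came from GENCODE M21 and promoters from RefSeq, both of GRCm38, which is mm10. No pair of libraries agreed within counting noise (lowest chi-square per degree of freedom 17.5). The labels do not tie same-numbered libraries together, and no pairing was used. The fits were tested on simulated data. Alternatives were DESeq2 1.42.0, limma 3.58.1 voom with quality weights, RLE factors, no filter, fits of 2 groups alone, controls limited to PBS 1 to 3 or to PBS 4 to 6, the replicate number as a block, Y-linked counts as a term, each library left out, and 2 joint omissions of libraries.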

Additional observations from a re-analysis of the deposited data

Results flagged for a closer look

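PBS 1 lay far from the other 5 PBS libraries, by a gap test at the 95% level, for 8 of the 43 genes examined, and PBS 2 for 1; chance flags about 1 group in 20. Among the 10 detoxification genes these were Gsta4, at 535 CPM in PBS 1 with the next library at 90.2 CPM, and Gclm, at 51.1 CPM in PBS 1 with the next at 78.6 CPM. Among transferase and regulator genes they were Gsto1, at 4606 CPM with the next at 1142 CPM, and Keap1, at 116 CPM with the next at 77.1 CPM. The others high in PBS 1 were Gpx4 at 656 CPM (next 373), Txnip at 412 CPM (next 205), Aldh2 at 359 CPM (next 206) and Cebpb at 57.0 CPM (next 26.6). Btrc was at 58.1 CPM in PBS 2, with the next library at 48.2 CPM.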

How the results depend on the processing

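Of the 30 log2 fold changes of the 10 genes, over all alternatives, 576 values kept direction and side of the threshold, 32 newly passed, 25 no longer passed and 34 changed sign. For carboplatin against PBS 1 gene passed, and the alternatives gave 2 with DESeq2, 6 with limma voom, 2 with only those groups, 0 with PBS 1 to 3 and 3 with PBS 4 to 6 as controls, 2 without PBS 1, selumetinib 1 and selumetinib 2 together, 0 without carboplatin 1 and 3 together, and 1 to 2 leaving out each library. For selumetinib against PBS 0 passed, and the alternatives gave 2 with DESeq2, 5 with limma voom, 1 with Y-linked counts as a term and 0 to 3 leaving out each library, 3 being without selumetinib 3. For carboplatin against selumetinib 3 passed, and the alternatives gave 8 with limma voom, 1 and 0 under the joint omissions, and 1 to 6 leaving out each library, 6 being without PBS 1. With the replicate number as a block, 0 genes passed in each comparison (Gstm1 0.92, adjusted p = 0.336, for carboplatin against PBS and 1.04, adjusted p = 0.0746, between the drugs). PBS 4 to 6 have numbers that no drug library shares, so in the block fit the comparisons with PBS rest on PBS 1 to 3. Deviations of same-numbered libraries correlated at r of -0.125 to 0.379, not all over 0.1, and 6 of 9 libraries correlated best with their own number. That check left out PBS 4 to 6, and some such matches arise by chance. It therefore cannot show whether libraries were paired. Over all genes the counts ran from 5 (block) to 5423 (limma voom) around 383 for carboplatin against PBS, from 0 to 10148 around 0 for selumetinib against PBS, and from 11 to 10749 around 2568 between the drugs; the causes were not tested.

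Sign changes for carboplatin against PBS were Gsta4 with limma voom 1.203, PBS 4 to 6 1.27, leaving out 1 library -0.54 to 0.91 (0.91 without PBS 1), the joint omission with PBS 1 0.90 and the Y-linked term 0.20; Srxn1 with PBS 4 to 6 0.11; and Txnrd1 with PBS 1 to 3 -0.17, block -0.14 and without carboplatin 1 and 3 -0.088. For selumetinib against PBS, limma voom gave Gstm1 0.16, Gclm -0.12 and Txnrd1 0.21. PBS 4 to 6 gave Gstm1 0.064, Gsta4 0.019, Gclm -0.13 and Txnrd1 0.12. PBS 1 to 3 gave Srxn1 -0.033 and Slc7a11 0.26, the block Srxn1 -0.10 and Slc7a11 0.17, and the Y-linked term Srxn1 -0.018 and Slc7a11 0.12. The joint omission with PBS 1 gave Gclc -0.13, Srxn1 -0.45 and Slc7a11 0.040. Leaving out 1 library gave Gstm1 -0.087 to 0.13, Gclm -0.076 to 0.099 and Txnrd1 -0.23 to 0.048. Between the drugs the Y-linked term gave Gclm -0.064, the joint omission with PBS 1 Srxn1 0.34 and limma voom Slc7a11 0.016. DESeq2 gave no adjusted p for Gsta4. Hmox1, the lowest gene, is the one whose precision counting limits most, and 3 libraries per drug limit all values.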
